A study of Arabidopsis thaliana with 75 samples.

Results

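Uncapped RNA was compared between Arabidopsis seedlings of the 35SALKBH10B line and of Col-0 after the same treatment with flg22. The libraries were taken by their labels, as every GMUCT library labelled 35SALKBH10B or Col-0 and flg22, and they number 6 of the 75 samples in the series, 3 of each genotype. All seedlings were 14 days old and had been held for 4 h in 1 µM flg22, the immunogenic peptide of bacterial flagellin. In 35SALKBH10B, the demethylase ALKBH10B is placed behind the viral 35S promoter, per the line's name, while Col-0 is the wild-type accession. The sources used here do not say whether the line is 1 transformant or whether seedlings were pooled. GMUCT, a transcriptome-wide map of cleaved and uncapped RNA, ligates an adaptor to the 5′ end of poly(A) RNA that has lost its cap, so it reads fragments left by decapping, cleavage and decay rather than intact messages. Values are RPM, reads scaled to the same library total over genes. Untreated 35SALKBH10B and untreated Col-0 seedlings of the same age (3 GMUCT libraries each) and mta seedlings, a line of the m6A methyltransferase gene MTA, also with and without flg22, entered the same fit and are given where they bear on a value. Whether untreated seedlings were sampled at the start or at 4 h cannot be settled from the labels.

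N6-methyladenosine (m6A) is the commonest internal mark of plant messenger RNA. A writer complex built around MTA places it, ECT proteins bind it, and demethylases of the ALKBH9 and ALKBH10 families remove it. ALKBH10B is known as the main messenger RNA demethylase of Arabidopsis and for its part in the floral transition. Perception of flg22 by the receptor kinase FLS2 starts pattern-triggered immunity, in which defence genes are induced and photosynthesis genes repressed within hours.

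Replicate 3 of 35SALKBH10B flg22 stood apart from the other libraries of its group. Over 17 genes induced in pattern-triggered immunity (PTI), the mean log2(RPM + 1) lay 2.2 and 2.04 above the mean of untreated 35SALKBH10B in replicates 1 and 2 but 0.44 above it in replicate 3. In Col-0 flg22 the same quantity was 1.28, 1.85 and 1.92 above untreated Col-0. On the first principal component of 18 libraries, which holds 49.1% of the variance, the 35SALKBH10B flg22 libraries lay at −38.9, −37.6 and 55.6, Col-0 flg22 at −74.1, −78.6 and −79.7, and untreated 35SALKBH10B at 64.6, 64.4 and 67.0. Over all tested genes, replicate 3 differed from the mean of untreated 35SALKBH10B by 0.30 log2 units on average, from the other 35SALKBH10B flg22 libraries by 0.68 and from Col-0 flg22 by 0.84. Its organelle reads did not follow that pattern, as given with the organelle genes. The median gene had an SD of 0.45 log2 units over the 3 libraries of 35SALKBH10B flg22, 0.27 without replicate 3 and 0.25 in Col-0 flg22. Results are therefore given with and without replicate 3. What set it apart was not tested. Depth was 8.8, 8.0 and 16.2 M reads in 35SALKBH10B flg22 and 13.4, 31.9 and 23.5 M in Col-0 flg22, and all 18 GMUCT libraries span 3.1 to 41.5 M, the lowest being untreated Col-0 replicate 2.

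**Figure D1:**
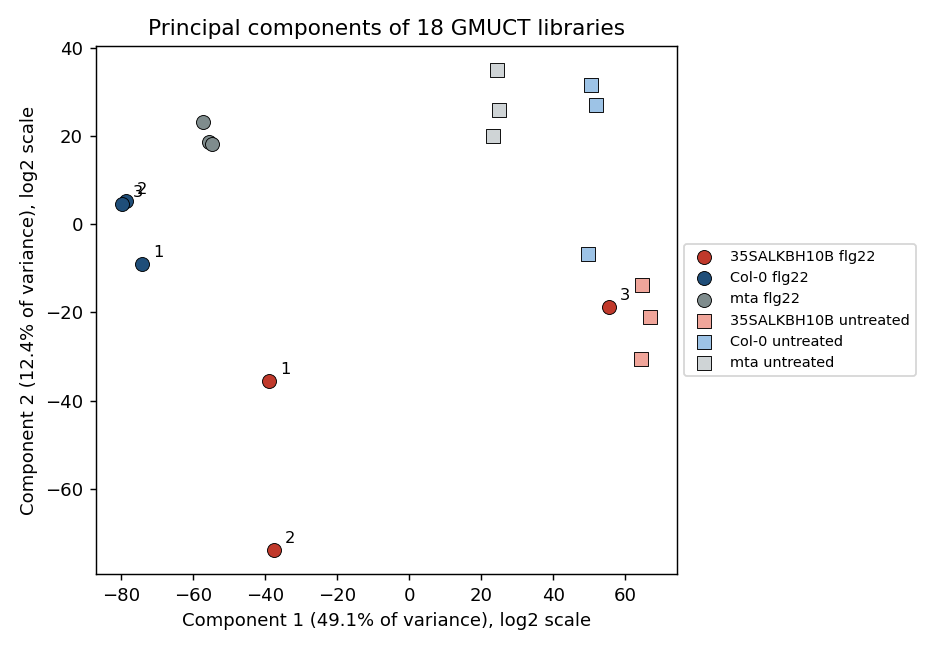
Principal components of log2(RPM + 1) over the 19277 tested genes in 18 GMUCT libraries, with component 1 (49.1% of variance) on the x axis and component 2 on the y axis; circles are flg22 libraries, squares untreated ones, and numbers give the replicates of 35SALKBH10B flg22 and Col-0 flg22. Replicates 1 and 2 of 35SALKBH10B flg22 lie on the side of the other flg22 libraries, at −38.9 and −37.6, while replicate 3 lies at 55.6 among the untreated ones.

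ALKBH10B itself was far higher in the overexpressing line in all 3 libraries. Uncapped ALKBH10B RNA (chromosome 4, 1306313 to 1311038, plus strand, TAIR10) stood at 634, 564 and 685 RPM in 35SALKBH10B flg22, against 64.5, 95.2 and 112 RPM in Col-0 flg22. The groups did not overlap, and replicate 3 was the highest of the 6, so its ALKBH10B level goes with the genotype in its label. The log2 fold change was 2.81 ± 0.18 (adjusted p = 2.6e-08) by limma with Benjamini-Hochberg adjustment, as for every adjusted p in the text (± gives the SE of a log2 fold change), and 2.75 ± 0.19 without replicate 3 (adjusted p = 1.7e-08). Without flg22, the same gene was at 469, 442 and 409.8 RPM in untreated 35SALKBH10B and 37.7, 36 and 37.3 RPM in untreated Col-0. Reads from the transgene and from the native locus cannot be told apart in these counts.

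Among 23 tested genes of the m6A machinery, ALKBH10B included, 2 rose and 3 fell, where 29.1% of all 19277 tested genes passed (20.6% higher, 8.5% lower). The list's median log2 fold change was 0.14 beside 0.24 for all tested genes, and it was −0.10 after rescaling by TMM factors (a correction for composition between libraries), where 2 rose and 4 fell. ECT7, an m6A reader, fell to 68.9, 58.6 and 70.2 RPM in 35SALKBH10B flg22, against 124, 128 and 115 RPM in Col-0 flg22 (−0.88 ± 0.23, adjusted p = 0.0077). ECT10, another YTH-domain reader, also fell, with 47.6, 43.4 and 62.9 RPM in 35SALKBH10B flg22, against 105, 78.8 and 75.3 RPM in Col-0 flg22 (−0.74 ± 0.17, adjusted p = 0.0033). Both decreases were under 2-fold, with no overlap between the groups. A locus on the same strand covers 98.7% of ECT10 and one covers 99.7% of ECT6, so their reads may belong to either gene. ECT6 rose by 0.85 ± 0.26 (adjusted p = 0.016), a call lost in 3 of 19 alternatives, among them the fit without Col-0 flg22 replicate 1. ALKBH9A, a relative of the demethylase, fell at low levels, with 1.82, 0.377 and 0.0616 RPM in 35SALKBH10B flg22, against 1.64, 3.45 and 3.96 RPM in Col-0 flg22 (−1.27 ± 0.32, adjusted p = 0.006). In the fit without replicate 3, 4 members rose and 3 fell, and without replicate 2 of 35SALKBH10B flg22, 6 rose and 3 fell.

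Across the transcriptome, more uncapped RNAs were higher than lower in 35SALKBH10B under flg22. Of 19277 tested genes, 3978 rose and 1638 fell at an adjusted p under 0.05, of which 2122 higher and 857 lower genes differed at least 2-fold, and 168 and 79 at least 4-fold. Without replicate 3, 3426 rose (17.8%) and 1740 fell (9.03%). With and without it, 2892 genes passed as higher and 1286 as lower, while 0 changed direction among those that passed both times. RPM are shares of a library, and the median gene was shifted by 0.24 log2 units (0.14 without replicate 3). After rescaling by TMM factors the shift was 0.002 and the split turned round, with 2530 genes higher (13.1%) and 3014 lower (15.6%), 28.8% in all. All 1638 lower calls were also made on the TMM scale, and 2528 of the 3978 higher ones. A set of 2223 higher and 1218 lower genes passed with all libraries, without replicate 3 and on the TMM scale, and had no overlap between the 3 libraries of each group, where 24.5% of all tested genes had every 35SALKBH10B flg22 library above and 10.4% every one below Col-0 flg22. A fit of the 6 flg22 libraries alone called 1251 higher and 562 lower, and of the genes named in the text ALKBH9A, ECT10, ECT6, MYB85, IGMT2, PROPEP3, CBP60G, HSP21, CNX1, SHD, TZF7, LSM1B, HAM1, TT4 and SCR did not pass in it. Replicate 3 was not used in the fit without it, and it lay above all 3 Col-0 flg22 libraries in 83.8% of the genes called higher there, beside 57.4% of all tested genes. For genes called lower there, it lay below all Col-0 flg22 libraries in 75.2%, beside 23.0% of all tested genes. The same 3 Col-0 flg22 libraries served to call these genes and to place replicate 3, so these shares are not an independent check.

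The genes with the highest log2 fold changes included an iron-deficiency regulator, a plant defensin, an extensin and 3 genes of the chloroplast genome. AT4G36700 (chromosome 4, 17298200 to 17300367, minus strand) led, with 55.2, 111 and 10.2 RPM in 35SALKBH10B flg22, against 0.744, 0.219 and 0.766 RPM in Col-0 flg22. It rose by 4.73 ± 0.51 (adjusted p = 2.4e-06), and by 5.67 ± 0.33 without replicate 3 (adjusted p = 1.5e-09). BHLH100 (chromosome 2, 17198037 to 17199465, minus strand), a transcription factor of the iron-deficiency response, had 53.8, 58 and 9.67 RPM in 35SALKBH10B flg22, against 0.298, 0.596 and 0.468 RPM in Col-0 flg22 (4.49 ± 0.44, adjusted p = 9.3e-07). For both genes replicate 3 was the lowest of its group but still above every Col-0 flg22 library. BHLH100 was also higher without flg22, at 7.21, 12.5 and 13 RPM in untreated 35SALKBH10B and 0.603, 0 and 0.318 RPM in untreated Col-0 (3.18 ± 0.44, adjusted p = 2.4e-04).

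PDF1.2, a plant defensin used as a marker of jasmonate and ethylene signalling, had 222, 156 and 20.4 RPM in 35SALKBH10B flg22, against 1.71, 5.2 and 6.34 RPM in Col-0 flg22. It rose by 4.19 ± 0.55 (adjusted p = 2.3e-05), with replicate 3 several times below the other libraries of its group and above all of Col-0 flg22. The near-identical PDF1.2c rose as well (3.16 ± 0.49, adjusted p = 1.1e-04), and so did PDF1.3 (2.75 ± 0.51, adjusted p = 5.0e-04), though reads shared between these copies could be split by the counting. AT5G60530 had 33.3, 107 and 27.1 RPM in 35SALKBH10B flg22, against 2.16, 1.47 and 2.68 RPM in Col-0 flg22 (3.94 ± 0.41, adjusted p = 1.5e-06). AT2G30766 had 27.9, 35 and 10.7 RPM in 35SALKBH10B flg22, against 0, 1.44 and 0.511 RPM in Col-0 flg22 (3.90 ± 0.39, adjusted p = 9.9e-07). In both genes the groups lay well apart, although the 35SALKBH10B flg22 libraries spread several-fold among themselves. HRGP1, an extensin of the cell wall with a close copy, rose by 3.26 ± 0.55 (adjusted p = 2.1e-04), and the annotated pseudogene AT2G07080 by 3.22 ± 0.38 (adjusted p = 7.2e-06). Without replicate 3, LURP1, known for its induction in resistance to downy mildew, joined the leading genes, with 60.1, 55.9 and 13.1 RPM in 35SALKBH10B flg22, against 2.83, 2.54 and 5.02 RPM in Col-0 flg22 (3.08 ± 0.38, adjusted p = 1.1e-05 with all libraries).

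The genes with the lowest log2 fold changes included AT4G28420 and AT5G24760, both abundant in Col-0 flg22. AT4G28420 (chromosome 4, 14055661 to 14057592, plus strand) had 55.4, 52.2 and 8.13 RPM in 35SALKBH10B flg22, against 698, 618 and 583 RPM in Col-0 flg22. It fell by 4.39 ± 0.43 (adjusted p = 9.3e-07), and fell by 3.53 ± 0.20 without replicate 3 (adjusted p = 1.3e-09). Replicates 1 and 2 of 35SALKBH10B flg22 were far below every Col-0 flg22 library and replicate 3 lower still, and untreated levels were low in both genotypes, at 8.31, 11.5 and 13.1 RPM in untreated 35SALKBH10B and 6.41, 9.65 and 9.78 RPM in untreated Col-0. AT5G24760 had 96.7, 64.2 and 57.2 RPM in 35SALKBH10B flg22, against 528, 498 and 472 RPM in Col-0 flg22, with no overlap and little spread within a group (−2.80 ± 0.20, adjusted p = 3.0e-08). In untreated seedlings it was at 73, 66.7 and 80.4 RPM in untreated 35SALKBH10B and 76.1, 55 and 89.6 RPM in untreated Col-0, so 35SALKBH10B flg22 was near the untreated range and Col-0 flg22 well above it. GLN1;4, a cytosolic glutamine synthetase, had 8.54, 5.15 and 3.88 RPM in 35SALKBH10B flg22, against 51.4, 45.1 and 45.7 RPM in Col-0 flg22 (−2.87 ± 0.25, adjusted p = 2.3e-07).

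GLIP5, a GDSL-type lipase, fell to 19.3, 9.17 and 10.04 RPM in 35SALKBH10B flg22, against 119, 114 and 93.3 RPM in Col-0 flg22 (−3.05 ± 0.24, adjusted p = 7.7e-08). It was also lower without flg22, at 19.4, 16.8 and 27.2 RPM in untreated 35SALKBH10B and 53.8, 60.8 and 60.8 RPM in untreated Col-0 (−1.45 ± 0.24, adjusted p = 8.8e-04). ZIP12, a member of the zinc transporter family, had 0.797, 0.502 and 0.0616 RPM in 35SALKBH10B flg22, against 14.8, 10.5 and 6.98 RPM in Col-0 flg22 (−3.0 ± 0.34, adjusted p = 4.9e-06). AT5G42830 fell by 2.93 ± 0.30 (adjusted p = 1.2e-06) and AT1G11370 fell by 2.84 ± 0.30 (adjusted p = 1.5e-06). BGLU27, a beta-glucosidase, had 22, 15.7 and 1.42 RPM in 35SALKBH10B flg22, against 56.9, 61.9 and 63.5 RPM in Col-0 flg22, and the log2 fold change was −2.66 ± 0.49 (adjusted p = 5.2e-04) with all libraries and −1.66 ± 0.21 without replicate 3 (adjusted p = 1.5e-05). MYB85, a transcription factor of secondary wall formation, had 1.37, 0.879 and 12.3 RPM in 35SALKBH10B flg22, against 12.7, 13.6 and 10.9 RPM in Col-0 flg22, so replicate 3 sat within Col-0 flg22 while replicates 1 and 2 lay far below. It fell by 1.78 ± 0.48 (adjusted p = 0.0088) with all libraries and fell by 2.66 ± 0.30 without replicate 3 (adjusted p = 3.7e-06), and the call was lost without replicate 2.

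**Figure D2:**
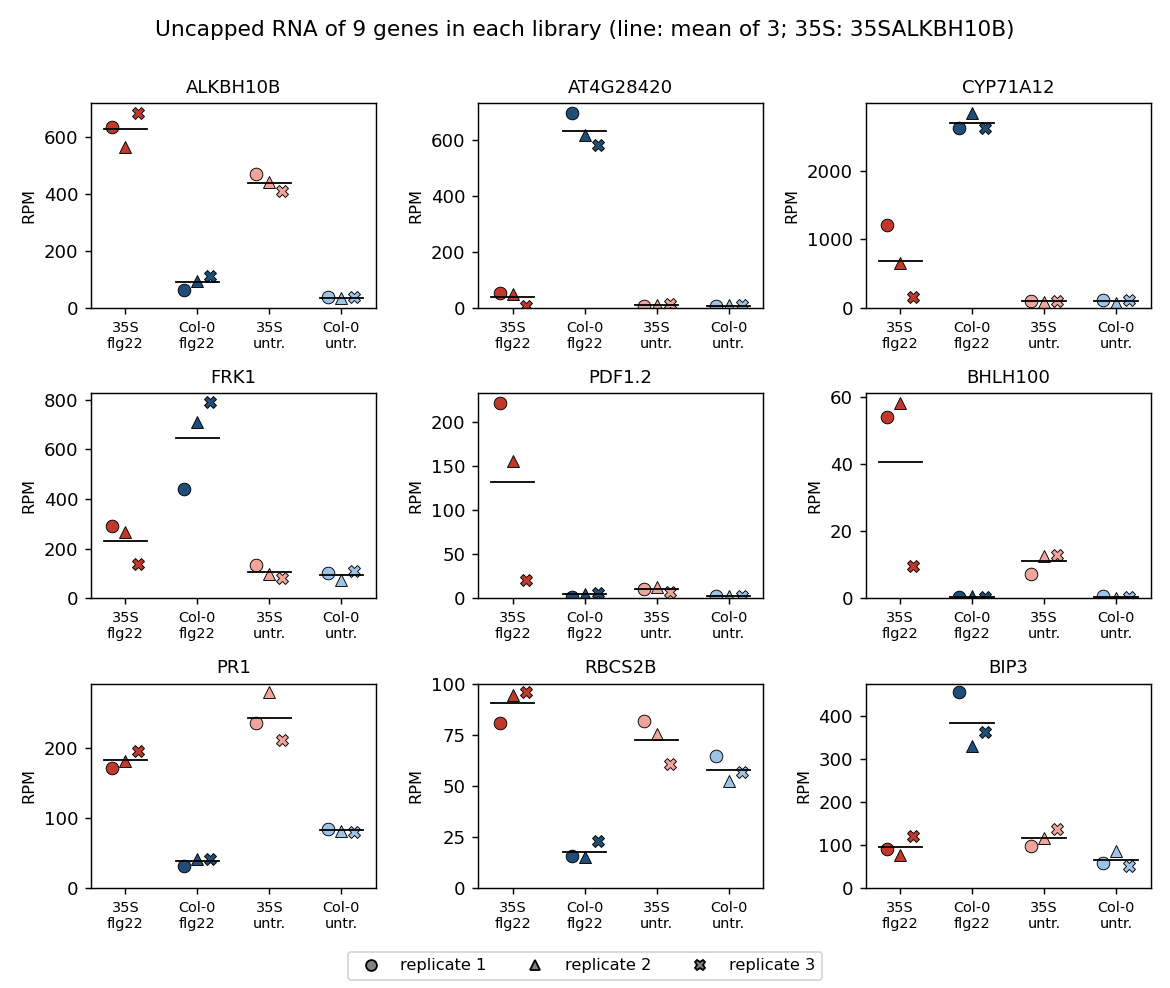
RPM (y axis, linear from 0) of 9 genes in each of 12 GMUCT libraries, grouped on the x axis as 35SALKBH10B flg22, Col-0 flg22, untreated 35SALKBH10B and untreated Col-0, with a symbol per replicate and a line at the mean of 3. ALKBH10B, PR1 and RBCS2B are high and AT4G28420 and BIP3 low in all 3 libraries of 35SALKBH10B flg22, while replicate 3 (cross) falls toward the untreated level for CYP71A12, FRK1, PDF1.2 and BHLH100.

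Genes of tryptophan-derived defence were called lower in 16 of 22 tested cases in 35SALKBH10B under flg22, where 8.5% of all tested genes were. These genes make camalexin and indole glucosinolates, antimicrobial compounds of the mustard family. None rose (0 and 17 on the TMM scale), and the fit of the 6 flg22 libraries alone called 6 lower. The list had a median of −1.18 with all libraries and −0.66 without replicate 3, where all genes had 0.24 and 0.14. Their summed level was 13946, 12782 and 4428 RPM in 35SALKBH10B flg22, against 22413, 22773 and 22822 RPM in Col-0 flg22. All 3 libraries of 35SALKBH10B flg22 were below Col-0 flg22, and replicate 3 was by far the lowest. CYP71A12, a cytochrome P450 acting on indole acetaldoxime, had 1212, 655 and 169 RPM in 35SALKBH10B flg22, against 2614, 2837 and 2613 RPM in Col-0 flg22 (−2.39 ± 0.42, adjusted p = 3.5e-04, −1.59 ± 0.24 without replicate 3, adjusted p = 8.8e-05). CYP79B2, the P450 upstream of it that acts on tryptophan, had 621, 543 and 167 RPM in 35SALKBH10B flg22, against 1545, 1239.7 and 1429 RPM in Col-0 flg22 (−1.86 ± 0.34, adjusted p = 5.1e-04). SOT16, a sulfotransferase of glucosinolate synthesis, fell by 1.88 ± 0.29 (adjusted p = 9.4e-05), and IGMT2, an indole glucosinolate methyltransferase with near-identical neighbours, fell by 1.84 ± 0.46 (adjusted p = 0.0057). Without replicate 3, 1 member rose and 15 fell.

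Of 17 tested PTI response genes, which microbial patterns induce, 1 rose and 9 fell, where 20.6% of all tested genes rose and 8.5% fell. The list had a median of −0.81 with all libraries and −0.42 without replicate 3. Summed levels were 3546, 3467 and 1161 RPM in 35SALKBH10B flg22, against 3619, 4999 and 5186 RPM in Col-0 flg22. Replicates 1 and 2 lay close to the lowest Col-0 flg22 library and replicate 3 well below it. FRK1, a receptor kinase used as the classic flg22 marker, had 292, 267 and 139 RPM in 35SALKBH10B flg22, against 439.7, 712 and 790.1 RPM in Col-0 flg22 (−1.50 ± 0.28, adjusted p = 6.4e-04, −1.17 ± 0.26 without replicate 3, adjusted p = 0.0026). PROPEP3, a precursor of a danger peptide, had 358, 425 and 74.6 RPM in 35SALKBH10B flg22, against 539.8, 825 and 789 RPM in Col-0 flg22 (−1.64 ± 0.40, adjusted p = 0.0044), and PROPEP2 fell by 1.98 ± 0.43 (adjusted p = 0.0021). PUB24, a ubiquitin ligase that dampens PTI, fell by 1.65 ± 0.33 (adjusted p = 9.3e-04), while without flg22 it was at 17.2, 14.2 and 15.7 RPM in untreated 35SALKBH10B and 41.1, 22.2 and 50.8 RPM in untreated Col-0 (−1.15 ± 0.33, adjusted p = 0.026). The fit without replicate 3 called 3 members higher and 8 lower, and the fit of the 6 flg22 libraries alone 1 and 3. Between untreated groups, 0 members rose and 5 fell, with a median of −0.70 beside −0.13 for all tested genes. For the flg22 response in 35SALKBH10B less that in Col-0, the list median was 0.03 (0.57 without replicate 3), beside 0.37 (0.27) for all tested genes.

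Among receptors, kinases and oxidases of PTI signalling, 0 of 26 rose and 6 fell, where 20.6% of all tested genes rose and 8.5% fell. The median was −0.34 with all libraries and −0.20 without replicate 3. Without replicate 3, 4 rose and 6 fell, and on the TMM scale 0 rose and 13 fell. Between untreated groups 0 rose and 6 fell, with a median of −0.42 beside −0.13 for all tested genes. The flg22 response in 35SALKBH10B less that in Col-0 had a list median of 0.13 (0.37 without replicate 3), beside 0.37 (0.27) for all tested genes. LYK4, a co-receptor for chitin, was lower in every library, with 20.6, 19.3 and 23.2 RPM in 35SALKBH10B flg22, against 76.6, 62.7 and 68.7 RPM in Col-0 flg22. It fell by 1.67 ± 0.19 (adjusted p = 4.9e-06) and replicate 3 was the highest of its group. BAK1, the co-receptor of FLS2, had 288, 221 and 146 RPM in 35SALKBH10B flg22, against 641, 605 and 584 RPM in Col-0 flg22 (−1.53 ± 0.22, adjusted p = 5.0e-05). BIK1, the cytoplasmic kinase released from the receptor complex, fell by 1.49 ± 0.21 (adjusted p = 4.3e-05), and the chitin receptor CERK1 fell by 1.27 ± 0.27 (adjusted p = 0.0019). Summed over the list, 35SALKBH10B flg22 had 4238, 4274 and 2271 RPM, against 4442, 4494 and 4407 RPM in Col-0 flg22, so that replicate 3 alone was far below the rest.

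Salicylic acid genes went both ways, with the marker PR1 higher and the activator CBP60G lower. Of 23 tested members, 4 rose and 7 fell, where 20.6% of all tested genes rose and 8.5% fell. The median was −0.16 with all libraries and 0.18 without replicate 3. PR1, the standard marker of salicylic acid signalling, had 171, 181 and 196 RPM in 35SALKBH10B flg22, against 31.9, 42 and 42.4 RPM in Col-0 flg22. It rose by 2.22 ± 0.16 (adjusted p = 3.4e-08), with nearly equal values in all 3 libraries, and it was high without flg22 too, at 235, 279.6 and 212 RPM in untreated 35SALKBH10B and 85.1, 82 and 80.6 RPM in untreated Col-0 (1.53 ± 0.16, adjusted p = 9.9e-06). PR5, a thaumatin-like protein, had 42.5, 30.8 and 12.4 RPM in 35SALKBH10B flg22, against 1.79, 3.57 and 5.24 RPM in Col-0 flg22 (2.62 ± 0.39, adjusted p = 6.8e-05), and WRKY70, a transcription factor at the crossing of salicylic acid and jasmonate signalling, 66.4, 44.7 and 23 RPM in 35SALKBH10B flg22, against 9.45, 14.6 and 10.3 RPM in Col-0 flg22 (1.78 ± 0.29, adjusted p = 1.7e-04). CBP60G, an activator of salicylic acid synthesis, had 189.8, 157 and 45.4 RPM in 35SALKBH10B flg22, against 198, 308 and 353 RPM in Col-0 flg22, so replicates 1 and 2 lay just below the lowest Col-0 flg22 library. It fell by 1.32 ± 0.35 (adjusted p = 0.0086) with all libraries and fell by 0.69 ± 0.23 without replicate 3 (adjusted p = 0.032). Without replicate 3, 5 members rose and 4 fell, and leaving out Col-0 flg22 replicate 1, 2 or 3 also left 4 that fell. On the TMM scale 3 rose and 8 fell.

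Jasmonate and ethylene genes went both ways too, and their count of increases was larger without replicate 3. Of 36 tested genes, 8 rose and 4 fell with all libraries, where 20.6% of all tested genes rose and 8.5% fell. Without replicate 3, 14 rose and 4 fell, where 17.8% of all tested genes rose and 9.03% fell. The medians were −0.02 with all libraries and 0.53 without replicate 3. On the TMM scale 7 rose and 9 fell, and without replicate 1 of 35SALKBH10B flg22 7 rose and 8 fell. VSP1 and VSP2, storage proteins induced by jasmonate, rose, with VSP2 at 14.8, 17 and 6.1 RPM in 35SALKBH10B flg22, against 2.68, 2.32 and 2.13 RPM in Col-0 flg22 (1.91 ± 0.29, adjusted p = 9.4e-05). VSP1 had 139, 219.5 and 39.5 RPM in 35SALKBH10B flg22, against 39.6, 27.8 and 23.8 RPM in Col-0 flg22, where replicate 3 fell just below the highest Col-0 flg22 library (1.81 ± 0.41, adjusted p = 0.0025, 2.51 ± 0.28 without replicate 3, adjusted p = 4.2e-06). ACS2, an enzyme of ethylene synthesis, went the other way, with 33.6, 22 and 10.2 RPM in 35SALKBH10B flg22, against 76.5, 109.9 and 105 RPM in Col-0 flg22 (−2.22 ± 0.34, adjusted p = 9.4e-05).

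Nuclear photosynthesis genes were higher in 35SALKBH10B under flg22. Of 44 tested members, 32 rose and 0 fell, and 30 rose and 0 fell without replicate 3, beside 20.6% and 17.8% of all genes called higher. The median was 1.03 with all libraries and 0.81 without replicate 3. Summed levels were 12076, 11629.7 and 21703 RPM in 35SALKBH10B flg22, against 7705, 6752 and 6918 RPM in Col-0 flg22, with replicate 3 the highest of all. RBCS2B, a Rubisco small subunit, had 80.8, 94.7 and 96 RPM in 35SALKBH10B flg22, against 15.7, 15 and 23 RPM in Col-0 flg22 (2.29 ± 0.18, adjusted p = 9.7e-08). RBCS1B, a near-identical gene copy, had 126, 271 and 232 RPM in 35SALKBH10B flg22, against 11.7, 43.6 and 41.2 RPM in Col-0 flg22 (2.80 ± 0.35, adjusted p = 1.2e-05). The antenna genes showed more of the spread: LHCB1.2 had 54.2, 63.5 and 226 RPM in 35SALKBH10B flg22, against 18.6, 23.2 and 20.8 RPM in Col-0 flg22 (2.1 ± 0.32, adjusted p = 1.0e-04, 1.45 ± 0.15 without replicate 3, adjusted p = 1.9e-06). A locus on the opposite strand covers LHCB1.2 whole. On the TMM scale 28 members rose and 0 fell. Relative to the untreated libraries of each genotype, the list's mean log2(RPM + 1) was lower by 0.89, 1.16 and 0.05 in 35SALKBH10B flg22 and by 1.88, 1.65 and 1.57 in Col-0 flg22.

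**Figure D3:**
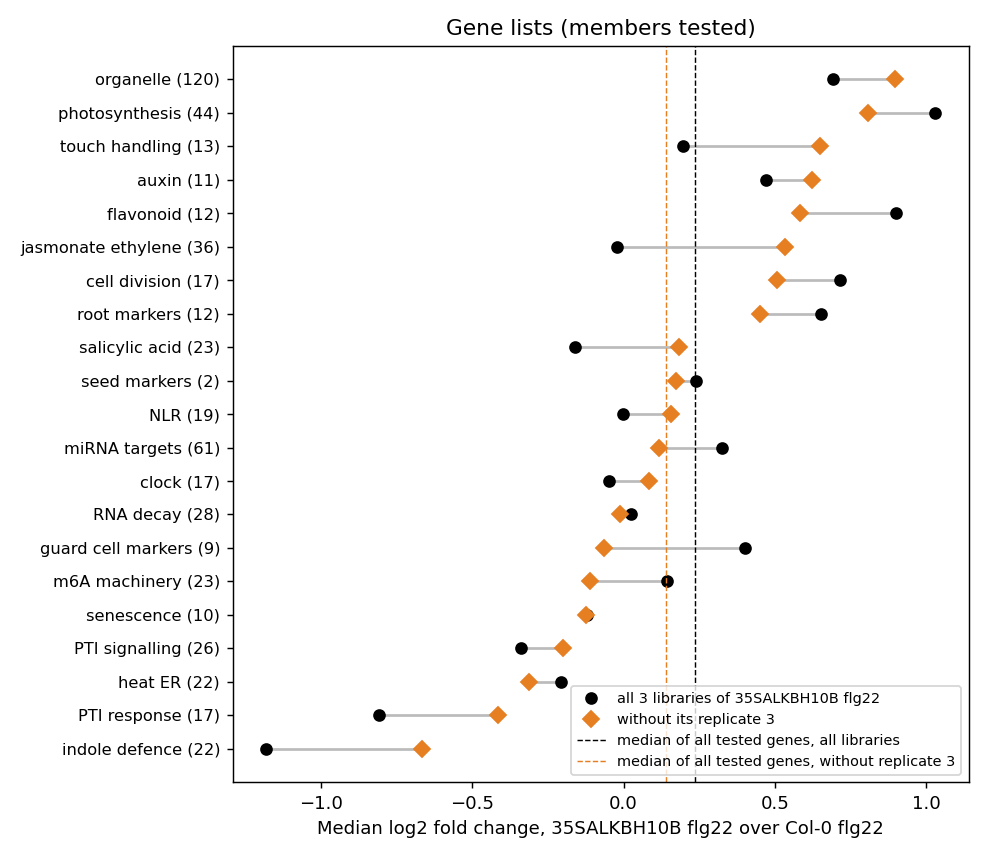
Median log2 fold change of 35SALKBH10B flg22 over Col-0 flg22 (x axis) for 21 gene lists, with the number of tested members in brackets; black circles use all libraries, orange diamonds leave out replicate 3 of 35SALKBH10B flg22, and dashed lines are the medians of all tested genes, 0.24 and 0.14. Indole defence and PTI response have the lowest medians with and without replicate 3, and photosynthesis and organelle genes the highest without it.

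Organelle-encoded RNA took a larger share of reads in every 35SALKBH10B flg22 library. Genes of the chloroplast and mitochondrial genomes held 1.23%, 1.75% and 1.60% of reads in 35SALKBH10B flg22, against 0.51%, 0.53% and 0.51% in Col-0 flg22. The means were 1.53% ± 0.269 in 35SALKBH10B flg22 and 0.515% ± 0.0104 in Col-0 flg22 (SD, n = 3 each), and an exact two-sided permutation test gave p = 0.1, the smallest that 3 against 3 libraries allow. Untreated 35SALKBH10B had 0.30%, 0.38% and 0.39%, and untreated Col-0 0.53%, 0.96% and 0.57%. Replicate 3 thus had the organelle share of its flg22 group and not that of the untreated 35SALKBH10B libraries it resembled elsewhere. Chloroplast genes alone had 0.78%, 0.87% and 0.73% in 35SALKBH10B flg22 and 0.27%, 0.26% and 0.26% in Col-0 flg22. Whether reads of organelle genes come from decapping or decay, as described for GMUCT above, was not tested.

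Of 120 tested organelle genes, 52 rose and 7 fell (63 and 5 without replicate 3), where 20.6% of all tested genes rose and 8.5% fell. The list had a median of 0.69 with all libraries and 0.90 without it. Among them 34 of 76 chloroplast genes rose and 7 fell, and 18 of 44 mitochondrial genes rose and 0 fell. ATCG00480 had 3027, 2686 and 2802 RPM in 35SALKBH10B flg22, against 411, 367 and 343 RPM in Col-0 flg22 (2.92 ± 0.20, adjusted p = 3.0e-08). It ran the other way without flg22, with 48.3, 41.7 and 29.9 RPM in untreated 35SALKBH10B and 183, 131 and 214 RPM in untreated Col-0 (−2.11 ± 0.20, adjusted p = 5.3e-06). ATCG00330 had 544, 899 and 548 RPM in 35SALKBH10B flg22, against 63.8, 46.5 and 55.3 RPM in Col-0 flg22 (3.53 ± 0.31, adjusted p = 2.9e-07), and ATCG00830, which has a copy in the inverted repeat, 110.0, 213 and 124 RPM in 35SALKBH10B flg22, against 4.76, 5.49 and 11.2 RPM in Col-0 flg22 (4.22 ± 0.30, adjusted p = 3.0e-08). The mitochondrial ATMG01080 had 31.7, 99.7 and 34.3 RPM in 35SALKBH10B flg22, against 1.71, 5.49 and 9.36 RPM in Col-0 flg22 (3.1 ± 0.44, adjusted p = 5.1e-05). On the TMM scale 41 rose and 8 fell. With the organelle genes left out of the table, 3924 genes rose and 1631 fell.

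**Figure D4:**
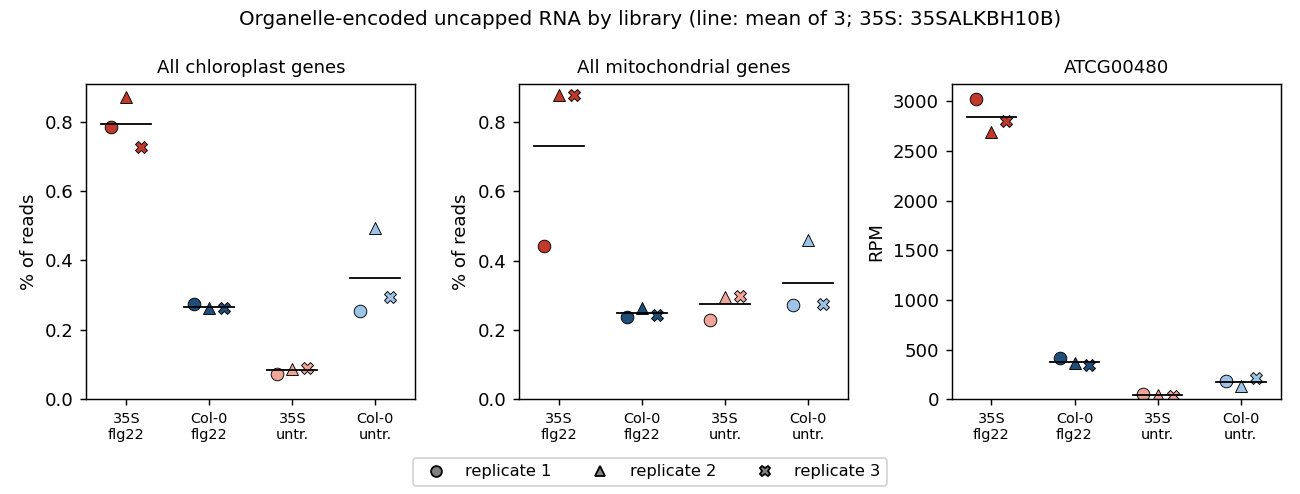
Share of reads in chloroplast and in mitochondrial genes (percent, left and middle panels) and RPM of ATCG00480 (right panel) by library, for 35SALKBH10B flg22, Col-0 flg22, untreated 35SALKBH10B and untreated Col-0, with a symbol per replicate and a line at the mean of 3. The 3 libraries of 35SALKBH10B flg22, replicate 3 included, lie above all Col-0 flg22 libraries in each panel.

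Chaperones of the endoplasmic reticulum (ER) fold secreted proteins. They made up 3 of the 4 largest changes among the stress chaperones that passed, and these 3 were lower in 35SALKBH10B flg22. Members that did not pass were not ranked. In the list of heat shock and ER chaperones, 1 of 22 rose and 7 fell (1 and 9 on the TMM scale), where 20.6% of all tested genes rose and 8.5% fell. Without replicate 3, 0 rose and 7 fell. The medians were −0.21 with all libraries and −0.31 without replicate 3. Without replicate 1 of 35SALKBH10B flg22, 4 rose and 7 fell. Between untreated groups 6 members rose and 0 fell, where 3.4% of all tested genes rose and 9.18% fell. The flg22 response was larger in 35SALKBH10B for 1 member and smaller for 7 (2 and 10 without replicate 3). For all tested genes these shares were 12.2% and 2.74% (15.1% and 4.42% without replicate 3). BIP3, a stress-induced HSP70 of the ER, had 91.5, 77.1 and 121 RPM in 35SALKBH10B flg22, against 455, 329.9 and 363 RPM in Col-0 flg22 (−1.99 ± 0.21, adjusted p = 1.6e-06), while without flg22 it was at 97.8, 116 and 138 RPM in untreated 35SALKBH10B and 58, 86.2 and 52.2 RPM in untreated Col-0. CNX1, the lectin chaperone calnexin, had 266, 279 and 527 RPM in 35SALKBH10B flg22, against 669.8, 644 and 643 RPM in Col-0 flg22, with replicate 3 nearest to Col-0 flg22. CNX1 fell by 0.94 ± 0.23 (adjusted p = 0.0044), and SHD, the ER HSP90, fell by 0.92 ± 0.23 (adjusted p = 0.006). HSP21, a small chloroplast heat shock protein, was the member that rose, at 1.82, 1.63 and 5.3 RPM in 35SALKBH10B flg22, against 0.298, 0.815 and 0.809 RPM in Col-0 flg22 (1.15 ± 0.32, adjusted p = 0.01, 0.75 ± 0.29 without replicate 3, adjusted p = 0.059), a call lost without replicate 3.

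Of 11 tested early auxin-response genes, 3 rose and 0 fell, where 20.6% of all tested genes rose and 8.5% fell. Without replicate 3, 5 rose and 0 fell, but on the TMM scale 2 rose and 1 fell. GH3.3, which conjugates auxin to amino acids, had 133, 105 and 80.2 RPM in 35SALKBH10B flg22, against 25.5, 29.1 and 32.7 RPM in Col-0 flg22 (1.81 ± 0.19, adjusted p = 1.8e-06). Its order was the opposite without flg22, at 68.8, 65.3 and 48.8 RPM in untreated 35SALKBH10B and 207, 189.5 and 220.4 RPM in untreated Col-0 (−1.75 ± 0.19, adjusted p = 1.6e-05). HAT2, an auxin-induced homeodomain factor, rose by 1.08 ± 0.20 (adjusted p = 5.0e-04) with values of 20.6, 22.9 and 21 RPM in 35SALKBH10B flg22, against 8.19, 11 and 9.92 RPM in Col-0 flg22.

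TCH4, a xyloglucan-modifying enzyme induced by touch, had 6525, 10474 and 4317 RPM in 35SALKBH10B flg22, against 2656, 2043 and 1752 RPM in Col-0 flg22 (1.65 ± 0.31, adjusted p = 6.1e-04). Of 13 tested genes of this list, 2 rose and 0 fell, where 20.6% of all tested genes rose and 8.5% fell. Without replicate 3, 7 rose, where 17.8% of all tested genes did. The median of 0.20 with all libraries was −0.09 on the TMM scale, where 1 rose and 1 fell. Without replicate 2 of 35SALKBH10B flg22 or replicate 2 or 3 of Col-0 flg22, 1 rose.

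Cell cycle genes rose in 7 of 17 tested cases and fell in 0, where 20.6% of all tested genes rose and 8.5% fell. They rose in 5 cases without replicate 3 or on the TMM scale. The count was 3 without Col-0 flg22 replicate 1 and 1 in the fit of the 6 flg22 libraries alone. KNOLLE, the syntaxin of the cell plate, had 10.7, 11.3 and 9.8 RPM in 35SALKBH10B flg22, against 2.23, 4.39 and 3.41 RPM in Col-0 flg22 (1.45 ± 0.23, adjusted p = 1.2e-04). Flavonoid genes rose in 6 of 12 cases and fell in 1, in 3 and 1 without replicate 3 and in 3 and 0 without Col-0 flg22 replicate 1. TT4, chalcone synthase, had 13, 14.9 and 65 RPM in 35SALKBH10B flg22, against 6.03, 6.43 and 6.73 RPM in Col-0 flg22, so replicate 3 was several times above the others (1.73 ± 0.38, adjusted p = 0.0019, 1.02 ± 0.21 without replicate 3, adjusted p = 0.0016). In the clock list 2 of 17 rose and 1 fell (2 and 2 on the TMM scale, 1 and 1 without replicate 1 of either group), among them CAT3, a clock-regulated catalase, with 863, 932 and 1379.6 RPM in 35SALKBH10B flg22, against 340.2, 519.9 and 501 RPM in Col-0 flg22 (1.21 ± 0.22, adjusted p = 5.2e-04). Of 10 senescence genes 2 rose and 1 fell, a split that turned to 1 and 4 on the TMM scale and was 2 and 2 without replicate 1 of either group. SAG13, a senescence-associated dehydrogenase, rose by 1.65 ± 0.23 (adjusted p = 4.0e-05), and ORE1, a NAC factor that promotes leaf ageing, fell by 1.14 ± 0.22 (adjusted p = 9.2e-04).

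Of 28 tested genes of decapping, exoribonuclease, deadenylation and exosome decay, the factors that make or remove uncapped RNA, 4 rose and 2 fell, where 29.1% of all tested genes passed (20.6% higher, 8.5% lower). The median was 0.03, while on the TMM scale 1 rose and 5 fell with a median of −0.26. Without replicate 1 of either group, 2 rose and 2 fell. TZF2, a tandem zinc finger protein, had 21.8, 20.8 and 14.5 RPM in 35SALKBH10B flg22, against 55.5, 45.8 and 37.5 RPM in Col-0 flg22 (−1.24 ± 0.22, adjusted p = 3.7e-04), and TZF7 fell by 1.02 ± 0.21 (adjusted p = 0.0013). LSM1B, a subunit of the decapping activator, rose by 0.78 ± 0.26 (adjusted p = 0.029), a call lost in 7 of 19 alternatives. Targets of conserved microRNAs, whose cleavage leaves uncapped 3′ fragments, rose in 15 of 61 cases and fell in 5 (10 and 12 on the TMM scale), where 20.6% of all tested genes rose and 8.5% fell. The counts were 11 and 7 without replicate 3, 15 and 3 without replicate 2 of 35SALKBH10B flg22, and 6 and 10 without Col-0 flg22 replicate 1. CSD2, a copper-zinc superoxide dismutase targeted by miR398, had 221, 265 and 288 RPM in 35SALKBH10B flg22, against 51.3, 87.7 and 109 RPM in Col-0 flg22 (1.69 ± 0.32, adjusted p = 6.1e-04). HAM1, a GRAS factor targeted by miR171, had 107, 187 and 268 RPM in 35SALKBH10B flg22, against 22.6, 99.6 and 134 RPM in Col-0 flg22, with overlap between the groups (1.37 ± 0.42, adjusted p = 0.018, a call lost in 7 of 19 alternatives, among them the fit without replicate 3). Among 19 NLR immune receptors 3 rose and 0 fell, but 2 rose and 5 fell on the TMM scale and 2 and 2 without Col-0 flg22 replicate 1. RPP4, of a cluster of near-identical receptor genes, had 54.8, 56.9 and 79.1 RPM in 35SALKBH10B flg22, against 23.8, 29.7 and 33 RPM in Col-0 flg22 (1.11 ± 0.19, adjusted p = 3.2e-04).

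Markers of other tissues moved in a few cases. Root markers rose in 4 of 12 tested genes and fell in 1 (2 and 1 without Col-0 flg22 replicate 1), where 20.6% of all tested genes rose and 8.5% fell. Their summed level was 169.5, 189 and 140.2 RPM in 35SALKBH10B flg22, against 123, 118 and 103 RPM in Col-0 flg22. PRP3, a root hair wall protein, had 3.99, 1.88 and 2.96 RPM in 35SALKBH10B flg22, against 0, 0.0627 and 0 RPM in Col-0 flg22 (1.91 ± 0.33, adjusted p = 2.5e-04), while SCR, of the root endodermis, fell by 0.79 ± 0.19 (adjusted p = 0.0046). Only 2 of 12 seed markers were tested. OLEO1, an oleosin of seed oil bodies, had 5.47, 4.02 and 6.47 RPM in 35SALKBH10B flg22, against 0, 0 and 0 RPM in Col-0 flg22, at least 35.9-fold higher against a floor of 3 reads per library. The late embryogenesis gene EM6 had 0, 0 and 0 RPM in 35SALKBH10B flg22, against 3.87, 3.13 and 3.45 RPM in Col-0 flg22, at least 11.6-fold lower by the same floor. CRA1, SESA3, SESA4 and ABI3 were at 0 in all 6 libraries. Seed markers also differed without flg22. Their summed level was 8.0, 5.91 and 8.17 RPM in untreated 35SALKBH10B and 1.13, 1.29 and 1.07 RPM in untreated Col-0. Of the 2 tested, 1 rose and 0 fell between the untreated groups. Of 9 tested guard cell markers 1 rose and 0 fell (0 and 1 without replicate 3, 0 and 0 on the TMM scale), and their sum was 36.7, 38.6 and 106 RPM in 35SALKBH10B flg22, against 45.1, 42.8 and 42.2 RPM in Col-0 flg22, with replicate 3 the highest. In whole seedlings, fewer cells of a type and less RNA per cell cannot be told apart, and the part of tissue make-up in the results was not tested.

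Uncapped RNA was then described by where m6A peaks lay. Peaks had been called by the authors per library and strand, in separate m6A libraries of 35SALKBH10B flg22 and Col-0 flg22 (3 each), and were assigned to a gene by their summit. The gene was taken on the strand opposite to the one named for the peak list. Across the lists, 98.8% to 99.4% of summits lay in a gene on that opposite strand. Only 3.8% to 4.5% lay in a gene on the named strand. Of 170 tested genes with a peak in all 3 m6A libraries of 35SALKBH10B flg22 and in 0 of Col-0 flg22, 89 rose (52.4%, where 20.6% of all tested genes did) and 2 fell in uncapped RNA, with a median log2 fold change of 0.90 (0.76 without replicate 3). Of 142 genes with the reverse, a peak in 0 libraries of 35SALKBH10B flg22 and in all 3 of Col-0 flg22, 9 rose and 46 fell (32.4%, where 8.5% of all tested genes did), with a median of −0.29 (−0.42 without replicate 3). Among 7659 genes with a peak in all 6 libraries, 22.7% rose and 11.8% fell, and among 6956 with none, 17.3% rose and 4.28% fell. Peak calling depends on how abundant an RNA is, and messenger RNA levels of 35SALKBH10B are not analysed here, so a difference in methylation and one in abundance cannot be told apart. AT4G36700, BHLH100 and AT5G60530 had a peak in 3, 2 and 3 libraries of 35SALKBH10B flg22 and in 0 of Col-0 flg22. GLN1;4 had one in 0 libraries of 35SALKBH10B flg22 and in 3 of Col-0 flg22.

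Genes with and without an m6A peak were also set against each other within each library. The 8366 genes with a peak in every Col-0 flg22 m6A library were set against 7353 unmarked ones at like messenger RNA level in Col-0 flg22, for which 14 of 20 level bins held enough genes. The marked genes had a higher median log2(RPM + 1), by 1.03, 1.12 and 1.2 in 35SALKBH10B flg22 and by 1.17, 1.06 and 1.03 in Col-0 flg22. The size of this gap depends on the bins. With 10 level bins it was 1.57, 1.60 and 1.61 in 35SALKBH10B flg22 and 1.68, 1.55 and 1.56 in Col-0 flg22. With 20 bins, the results were as follows. The means were 1.12 ± 0.0848 in 35SALKBH10B flg22 and 1.09 ± 0.0714 in Col-0 flg22 (SD, n = 3 each), which differ by 0.03 (exact two-sided permutation p = 0.6). Without replicate 3 the difference was −0.0093, and it was −0.0019 with 10 level bins, so its sign is not settled.

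**Figure D5:**
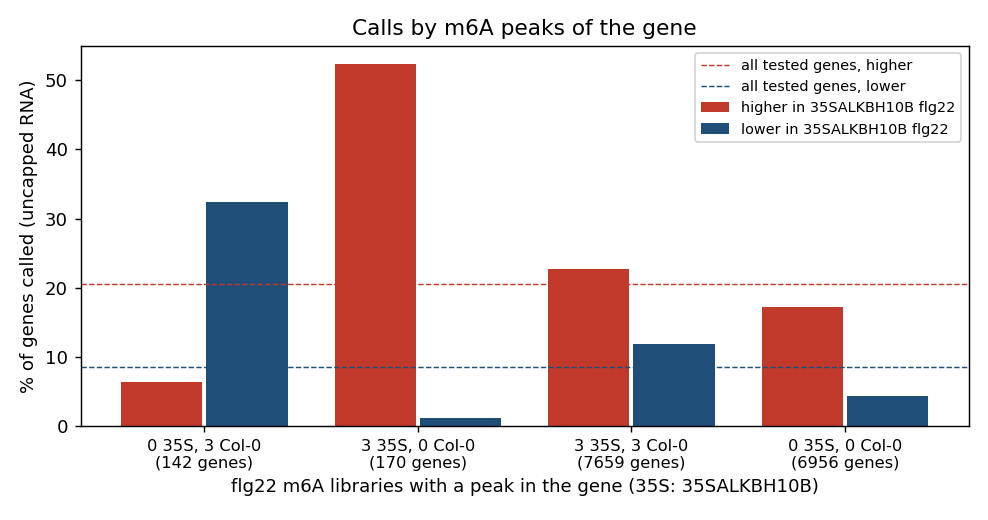
Percent of tested genes whose uncapped RNA was called higher (red) or lower (blue) in 35SALKBH10B flg22 against Col-0 flg22 (y axis, from 0), for 4 classes of genes by the number of flg22 m6A libraries of each genotype with a peak in the gene (x axis); dashed lines are the shares of all tested genes, 20.6% and 8.5%. Of the genes with a peak in 35SALKBH10B alone, 52.4% were called higher, and of those with a peak in Col-0 alone, 32.4% were called lower.

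The flg22 response itself was then set between the genotypes, as flg22 minus untreated in 35SALKBH10B less the same difference in Col-0. This difference passed as larger in 35SALKBH10B for 2343 of 19277 genes (12.2%) and as smaller for 528 (2.74%), and without replicate 3 for 2904 (15.1%) and 853 (4.42%), of which 2090 and 492 passed both times. On the TMM scale 814 were larger and 1349 smaller. AT4G28420 had the lowest value that passed, −4.70 ± 0.60 (adjusted p = 8.9e-05), and ATCG00480 the highest, 5.03 ± 0.29 (adjusted p = 2.0e-09). The difference also passed for CYP71A12 (−2.39 ± 0.60, adjusted p = 0.012), BIP3 (−2.84 ± 0.29, adjusted p = 9.7e-06), GH3.3 (3.56 ± 0.27, adjusted p = 2.0e-07) and WRKY70 (2.41 ± 0.41, adjusted p = 9.8e-04). For BHLH100 it did not pass with all libraries (1.31 ± 0.62, adjusted p = 0.16) but passed without replicate 3 (2.12 ± 0.38, adjusted p = 8.3e-04). The same held for ALKBH10B, with −0.72 ± 0.26 (adjusted p = 0.065) and, without replicate 3, −0.79 ± 0.25 (adjusted p = 0.033). The value of CYP71A12 was −1.59 ± 0.32 without replicate 3 (adjusted p = 0.0021). Of 36 jasmonate and ethylene genes, 11 had a larger response in 35SALKBH10B and 0 a smaller one (22 and 0 without replicate 3), and of 120 organelle genes, 67 and 0 (80 and 0 without replicate 3). Both lists were lower in untreated 35SALKBH10B than in untreated Col-0. There 1 of the 36 rose and 12 fell (median −0.65), and 2 of the 120 rose and 50 fell (median −0.74). The median of all tested genes was −0.13. Of 17 PTI response genes, 2 had a larger response and 2 a smaller one (7 and 2 without replicate 3). Over all genes, 1445 larger and 357 smaller responses passed without untreated 35SALKBH10B replicate 2, 1414 and 357 without its replicate 3, and 1502 and 414 without Col-0 flg22 replicate 1.

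Part of the difference was present in untreated seedlings. Between untreated 35SALKBH10B and untreated Col-0, which share no library with the flg22 groups, 656 of 19277 genes were higher (3.4%) and 1769 lower (9.18%), a split that turned to 1339 and 1037 on the TMM scale. Leaving out replicate 1, 2 or 3 of untreated 35SALKBH10B or replicate 3 of untreated Col-0 lowered the total of 2425 to 1549, 926, 1169 or 1572. All 18 libraries share one estimate of the spread, and without replicate 3 of 35SALKBH10B flg22, a library outside this comparison, the total was 4145 (1296 higher, 2849 lower). The genes higher in both states number 383, which is 9.63% of those higher under flg22 and 58.4% of those higher without it. Those lower in both number 361, 22% of the lower calls under flg22 and 20.4% of those without it. Another 183 were higher under flg22 and lower without it, and 27 the reverse. Of 76 chloroplast genes, 34 were higher under flg22 and 37 were lower without it, and 13 were both.

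The same genes were read in mta seedlings under flg22, the line named for the m6A writer. That comparison uses the same Col-0 flg22 libraries, so its values stand side by side with those above and no overlap is given. Of 19277 genes, 464 were higher (2.41%) and 92 lower (0.477%) in mta flg22 than in Col-0 flg22, 2.88% in all, or 268 and 317 on the TMM scale. The total of 556 fell to 152, 154 and 248 without mta replicates 2, 3 and 1, and to 205 and 302 without Col-0 flg22 replicates 1 and 2, while it was 1661 (1300 higher, 361 lower) without replicate 3 of 35SALKBH10B flg22, which shares the spread. PR1 had 179, 175 and 189 RPM in mta flg22, close to 35SALKBH10B flg22, and a log2 fold change over Col-0 flg22 of 2.21 ± 0.16 (adjusted p = 7.5e-08). SAG13 also rose in mta flg22 (1.82 ± 0.23, adjusted p = 1.1e-04), as did RBCS2B (1.15 ± 0.18, adjusted p = 0.0013) and GH3.3 (0.81 ± 0.19, adjusted p = 0.025). AT4G28420 was at 504, 519.9 and 454 RPM in mta flg22 (−0.36 ± 0.43, adjusted p = 0.7) and BHLH100 at 0.419, 0.408 and 0.444 RPM (−0.02 ± 0.44, adjusted p = 0.98). For both genes mta flg22 lay near Col-0 flg22 and far from 35SALKBH10B flg22. ATCG00480 had 354, 282 and 300.0 RPM in mta flg22 (−0.26 ± 0.20, adjusted p = 0.52). Among lists, 1 of 22 indole defence genes fell and 0 rose in mta flg22, 10 of 44 photosynthesis genes rose and 0 fell, and 1 of 120 organelle genes rose and 0 fell. Of 22 heat shock and ER chaperone genes, 10 rose and 0 fell in mta flg22, where 2.41% of all tested genes rose. The median of that list in mta flg22 was −0.10.

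The authors' deposited table gives, per group, a log2 ratio of uncapped over total RNA without replicates. For AT4G28420, the authors' deposited table lists −0.07 in 35SALKBH10B flg22 and 1.16 in Col-0 flg22. In the authors' deposited table, CYP71A12 had −1.16 in 35SALKBH10B flg22 and −0.15 in Col-0 flg22. PR1 stands at 0.70 in 35SALKBH10B flg22 and −1.25 in Col-0 flg22 in the authors' deposited table, and RBCS1B at 0.10 in 35SALKBH10B flg22 and −1.25 in Col-0 flg22. In the same authors' deposited table ALKBH10B stands at −1.39 in 35SALKBH10B flg22 and −0.87 in Col-0 flg22. For ALKBH10B the uncapped RNA rose while the ratio is lower, and the authors' deposited table also has genes whose uncapped RNA fell while the ratio is higher, such as GLN1;4 with 0.61 in 35SALKBH10B flg22 and 0.41 in Col-0 flg22. Which replicates entered these values is not stated in the sources used here, and no test is possible on them.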

How the data were processed

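GMUCT libraries were deposited as RPM per gene, scaled by the authors to the sum over genes, and in the 18 columns 100% of values came out as whole reads within 0.01. Per the submitters' processing notes, STAR, MACS2 and TAIR10 were used, with no version given; the sources used here do not give the strand setting of the counting. limma 3.58.1 in R 4.3.3 was run on log2(RPM + 1), with 6 groups and a variance trend, for 19277 genes that reached an RPM of 1 in 3 or more of the 18 libraries. A gene passed at a Benjamini-Hochberg adjusted p under 0.05. This scale understates changes of low genes. The authors deposited mRNA read counts, of which the Col-0 flg22 columns (featureCounts 2.0.1, per the file headers) gave messenger levels, and 12 columns whose names match no sample's labels were not used. MACS2 peaks were deposited with a fold enrichment as a ratio and a −log10 q, both the authors'. The log2 ratios of uncapped over total RNA are the authors' deposited values.

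Recovered reads were also tested with edgeR 4.0.16 and DESeq2 1.42.0. Symbols come from RefSeq's table, which matched 31912 of 32678 gene IDs, and 462 of 495 list symbols matched a measured gene; the loci of ALKBH10B and a few others are from general knowledge. Members and gene lists were chosen with earlier results of these data known, so the counts in every list are descriptive and carry no test of the list. Named genes were ALKBH10B and passing m6A genes, the 10 highest and 10 lowest passing genes without overlap between groups and with a mean RPM of 5 or more (with all libraries and without replicate 3), up to 4 passing members per list by size, and the 5 highest and lowest of the interaction. The labels do not say whether replicates were separate cultures, so p-values measure the spread between these samples, which may be technical. The limma procedure was tested on simulated data.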

Additional observations from a re-analysis of the deposited data

Results flagged for a closer look

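Among named genes, 10 were singled out by the interaction test, which compares the flg22 response (flg22 minus untreated, log2) between 35SALKBH10B and Col-0. They hold the 5 highest and 5 lowest values that passed, so they were chosen by the size of the value. Other named genes passed the same test. The response was larger in 35SALKBH10B for ATCG00480 (5.03 ± 0.29, SE, limma adjusted p = 2.0e-09), ATCG00810 (4.66 ± 0.53, adjusted p = 2.6e-05), AT1G32920 (4.51 ± 1.03, adjusted p = 0.0071), ATCG00800 (4.34 ± 0.54, adjusted p = 7.1e-05) and ATCG01130 (4.11 ± 0.52, adjusted p = 7.9e-05). In these 5 the untreated 35SALKBH10B libraries were low. AT1G32920 had 5.72, 3.08 and 4.21 RPM in untreated 35SALKBH10B and 82.7, 163 and 85 RPM in untreated Col-0, and 125, 33 and 6.53 RPM in 35SALKBH10B flg22, against 7.59, 44 and 56.8 RPM in Col-0 flg22, with overlap under flg22. ATCG00810 had 1.88, 3.08 and 2.36 RPM in untreated 35SALKBH10B and 49.97, 22.8 and 58.5 RPM in untreated Col-0, and 191, 179 and 190.0 RPM in 35SALKBH10B flg22, against 117, 75.5 and 81.9 RPM in Col-0 flg22.

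The response was smaller in 35SALKBH10B for AT4G28420 (−4.70 ± 0.60, adjusted p = 8.9e-05), AT4G35170 (−3.28 ± 0.45, adjusted p = 1.4e-04), AT1G23560 (−3.08 ± 0.31, adjusted p = 6.8e-06), AT3G23245 (−2.97 ± 0.44, adjusted p = 3.2e-04) and AT1G11370 (−2.88 ± 0.42, adjusted p = 2.6e-04). AT1G23560 had 23.1, 25.7 and 20.0 RPM in 35SALKBH10B flg22, against 135, 87.2 and 82.1 RPM in Col-0 flg22, and 16.5, 20.0 and 23.5 RPM in untreated 35SALKBH10B and 11.8, 7.08 and 9.58 RPM in untreated Col-0, so that all 3 libraries of 35SALKBH10B flg22 stayed near their untreated level.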

How the results depend on the processing

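Among single named genes, 1936 values under the alternatives kept the direction and the side of the threshold, 114 kept the direction and no longer passed, 7 newly passed, and 0 reversed. The fit of the compared libraries alone, with fewer degrees of freedom, gave 1813 calls (1251 higher, 562 lower) in place of 5616 for 35SALKBH10B flg22 against Col-0 flg22 and 1004 (795 and 209) in place of 2871 for the difference of responses. Leaving out 1 library at a time gave 4272 to 6031 calls for the flg22 comparison, 1771 to 3757 for the difference of responses, 926 to 4145 between untreated groups and 152 to 1661 for mta flg22 against Col-0 flg22, the highest of the last 3 each without 35SALKBH10B flg22 replicate 3. The fold change of ALKBH10B then ran from 2.59 to 2.98 and the organelle difference from 0.900 to 1.16 percentage points. Array weights gave 5264 calls (4390 larger, 874 smaller) for the difference of responses and 9199 (2143 higher, 7056 lower) in place of 2425 between untreated groups, and the cause was not tested. The difference between m6A-marked and unmarked genes, 0.0329, ran from −0.0093 to 0.0754 with libraries left out and was −0.0019 with 10 bins and −0.0134 with peaks at q of 0.001 or less. On recovered reads, edgeR called 2995 genes higher and 2749 lower and DESeq2 3311 and 3126, and for the difference of responses edgeR called 945 larger and 1064 smaller and DESeq2 1408 and 1511, against 2343 and 528. With a replicate block, 5484 genes passed (3874 higher, 1610 lower), 2661 for the difference of responses, 2237 between untreated groups and 474 for mta. Replicate numbers did not pair the flg22 libraries: the correlations of same-numbered deviations were −0.257, 0.0155 and −0.178, and 1 of 3 libraries correlated best with its own number. Settings chosen after seeing the data were the stricter peaks, the table without organelle genes, and all alternatives for mta and most for untreated groups. With 3 libraries a group, a single comparison cannot reach an exact p under 0.1, and genes at a few RPM rest on few reads in the shallowest libraries.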

Other observations

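Phenylpropanoid genes, whose enzymes turn phenylalanine into lignin precursors and other phenolics, were examined after their values had been seen, so the list carries no test. Of 17 tested genes, 13 were lower and 0 higher by the adjusted p of the single genes, where 8.5% of all tested genes were lower and 20.6% higher. The median log2 fold change was −1.37 with and without replicate 3. PAL1, a phenylalanine ammonia-lyase, had 3129, 3542 and 2518 RPM in 35SALKBH10B flg22, against 16483, 11462 and 10601 RPM in Col-0 flg22, and 2167, 2408 and 2499 RPM in untreated 35SALKBH10B and 1711, 1520.0 and 1733 RPM in untreated Col-0. 4CL1, a coumarate-CoA ligase, had 192, 213 and 215 RPM in 35SALKBH10B flg22, against 502, 585 and 655 RPM in Col-0 flg22 (−1.48 ± 0.18, adjusted p = 7.2e-06), and 193, 189 and 174 RPM in untreated 35SALKBH10B and 131, 202 and 137 RPM in untreated Col-0. The 4CL1 values of 35SALKBH10B flg22 lay near the untreated ones in all 3 libraries, and those of PAL1 somewhat above them. CCOAOMT1, a methyltransferase of monolignol synthesis, had 1023, 1242 and 1029 RPM in 35SALKBH10B flg22, against 3220.2, 2783 and 2535 RPM in Col-0 flg22 (−1.37 ± 0.19, adjusted p = 4.1e-05). CCR2, a cinnamoyl-CoA reductase induced by pathogens, did not share that evenness, with 101, 55.3 and 14.8 RPM in 35SALKBH10B flg22, against 199.6, 292 and 287 RPM in Col-0 flg22 (−2.52 ± 0.40, adjusted p = 1.2e-04). FAH1, the ferulate hydroxylase of the syringyl branch, did not pass (0.09 ± 0.18, adjusted p = 0.75).

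Iron genes were also listed after BHLH100 had been seen among the leading genes. Of 15 tested genes, 6 were higher and 0 lower, where 20.6% of all tested genes were higher and 8.5% lower. OPT3, a phloem transporter that signals iron status, had 95.5, 205 and 89.5 RPM in 35SALKBH10B flg22, against 29.6, 12.7 and 9.15 RPM in Col-0 flg22 (2.91 ± 0.36, adjusted p = 1.2e-05), and 76.1, 118 and 126 RPM in untreated 35SALKBH10B and 58.2, 92.7 and 54.4 RPM in untreated Col-0, so Col-0 flg22 stood below the other 9 of these 12 libraries. BHLH38, a paralogue of BHLH100, had 17.5, 8.66 and 2.1 RPM in 35SALKBH10B flg22, against 0.744, 0.439 and 0.17 RPM in Col-0 flg22 (2.52 ± 0.40, adjusted p = 1.3e-04), and ZIF1, a vacuolar transporter of zinc and nicotianamine, 77.6, 51.5 and 21 RPM in 35SALKBH10B flg22, against 8.63, 13.1 and 13.1 RPM in Col-0 flg22 (1.85 ± 0.33, adjusted p = 3.5e-04). The ferritin genes FER3 and FER4, whose proteins store iron, did not pass, at −0.11 ± 0.23 and −0.45 ± 0.29 on the log2 scale, though FER4 passed as lower on the TMM scale (adjusted p = 0.041).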
